A study of Mus musculus with 10 samples.

Results

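The response of wild-type (WT) CD8+ T cells to 30 min of stimulation was examined in 4 of the 10 RNA-seq libraries of a mouse series. These are the 2 WT libraries at 0 min and the 2 WT libraries at 30 min, chosen by their labels alone. All genes of the deposited table entered, and 12203 of its 12637 genes were tested. The cells came from spleens of female C57Bl/6 mice aged 6 weeks. Naive CD8+ cells, sorted by a naive surface phenotype with CD44 low or absent after negative selection, were taken at once (0 min) or kept for 30 min on plates bearing bound anti-CD3 and anti-CD28 antibodies. Cells that were kept for 30 min on uncoated plates were not analysed here, so time in culture and receptor engagement cannot be told apart. The rest of the series is 1 WT library at 120 min and 5 libraries of Ikaros-Zn4-/- cells, which carry a homozygous mutation of zinc finger 4 of the transcription factor Ikaros, at the same times. The labels do not say whether the 2 libraries of a group come from separate mice. The p-values therefore reflect only how far samples of a group differ from each other, which may be technical. Their spread was estimated over all 10 libraries, those of Ikaros-Zn4-/- cells included.

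Antibodies to CD3 engage the T cell receptor complex and antibodies to CD28 engage its main costimulatory receptor. The receptor signals through tyrosine kinases to calcium and the phosphatase calcineurin, to the Ras and MAP kinase cascade and to NF-kB. The first genes switched on, called immediate early genes, need no new protein for their transcription and encode transcription factors of the AP-1, EGR and NR4A families. They also encode inhibitors of the pathways that induced them, such as MAP kinase phosphatases and the inhibitor of NF-kB.

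The libraries held 10.7 and 8.89 M reads at 0 min and 11.6 and 5.82 M at 30 min, as recovered from the steps of the RPKM values (reads scaled to exon length and library size, the deposited unit). All 7 markers of CD8 T cells were measured and their summed level was 2320 to 2719 RPKM at 0 min and 1599.55 to 2056 RPKM at 30 min. Cd8a itself was at 389.6 and 436 RPKM at 0 min and 226 and 290.1 RPKM at 30 min, a difference that did not pass the test (limma, adjusted p = 0.0713). Of other cell types, 3 of 8 natural killer cell markers were measured, with sums of 89.2 to 90.6 and 106 to 125 RPKM at 0 and 30 min, nearly all of it Il2rb, which CD8 T cells also express. The sums were 15.04 to 16.3 and 9.61 to 10.96 RPKM for 4 of 11 B cell markers, 20.8 to 24.8 and 17.2 to 17.99 RPKM for 3 of 11 myeloid markers, and 5.06 to 15.5 and 35.4 to 36.1 RPKM for 3 of 7 CD4 and regulatory T cell markers. Of the B cell markers Cd79b, which signals for the antigen receptor of B cells, fell from 14.1 and 14.8 to 6.51 and 7.56 RPKM (limma, adjusted p = 0.0392), and Cd74, the invariant chain of MHC class II, rose from 0.793 and 1.04 to 2.63 and 2.803 RPKM (adjusted p = 0.0453). Neither call held with any WT library left out. In the list of CD4 and regulatory T cells Ctla4, an inhibitory receptor that activated CD8 T cells also make, went from 13.5 and 2.75 to 33.3 and 33.8 RPKM (adjusted p = 0.0886), and Cd4 and Foxp3 were not analysed here. In such bulk samples fewer cells of a type and less RNA per cell cannot be told apart. The 9 erythroid and platelet markers were not analysed here.

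Within 30 min, 392 genes rose and 344 fell, which is 3.21% and 2.82% of the 12203 genes tested (6.03% in all). The test was limma on log2(RPKM + 1), with p-values adjusted over all genes tested by the Benjamini-Hochberg method and a threshold of 0.05. "Rose" and "fell" refer only to genes past it. When the spread was taken from the compared WT groups only, 173 genes were called higher and 60 lower. A fit with the replicate number as a block called 694 higher and 1197 lower. The rises were the larger changes: 249 of them were at least 2-fold, 52 at least 4-fold and 9 at least 8-fold on the scale of RPKM + 1, against 99 falls of at least 2-fold and 2 of at least 4-fold. All 736 called genes had groups that did not overlap, while 19% of all genes tested had both 30 min libraries above both 0 min libraries and 41.4% had both below. A lack of overlap in a called gene named below is therefore no added support. The median gene changed by -0.15 on the log2 scale, so log2 changes are given below relative to that median, on the scale of RPKM + 1, while each adjusted p tests the change as deposited. A number that stands before an SE in brackets is such a change, and the medians of gene lists are on the same scale, where the median of all genes is 0. After scaling by the median ratio, 71.2% of the calls were rises, against 53.3% as deposited.

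Most calls need all 4 libraries. Leaving out 1 WT library left 105 calls (without 0 min replicate 1), 17 (without 0 min replicate 2), 25 (without 30 min replicate 1) or 13 (without 30 min replicate 2), with the lone sample assumed to vary like the other groups. Of the 736 called genes 688 had a value in each of 17 alternative settings, and the other 48 were left out of at least 1, mostly by the higher minimum of 2 RPKM. Each called gene kept its direction in the settings where it had a value, and 10 of them kept their call in all 17. These 10 are Tnf, the MAP kinase phosphatase Dusp10, Errfi1, the immediate early genes Klf10 and Sertad1, the lactate and pyruvate transporter Slc16a1, Amd1 of polyamine synthesis, Csrnp2, Wsb1 and the pseudogene RP23-16N14.5. All 10 rose.

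**Figure D1:**
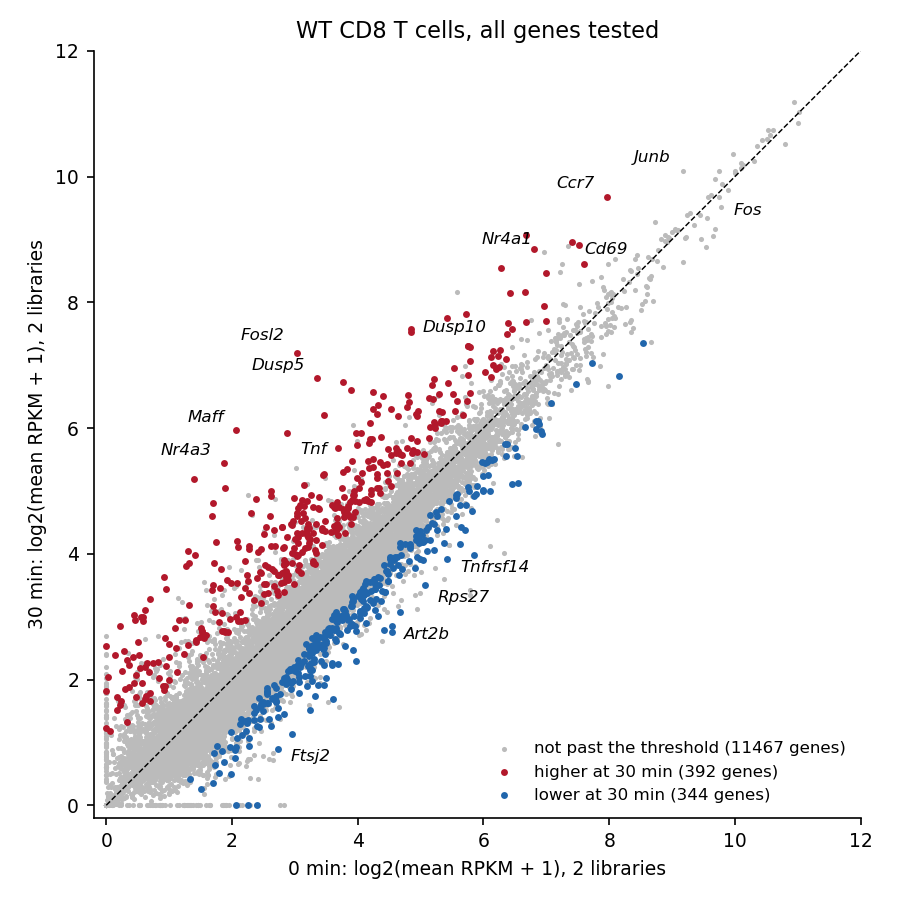
Mean level of each of the 12203 genes tested in WT CD8 T cells at 0 min (x) and 30 min (y), as log2(mean RPKM + 1) of 2 libraries each, with the 392 genes called higher in red, the 344 called lower in blue and the dashed line at equality. Rises reach farther from the line than falls, and the abundant genes Fos and Junb lie among the genes not past the threshold.

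The upstream sequences of risen genes were searched for the sites of the factors that T cell receptor signals act on, in the 250 bases before the annotated start in RefSeq (GRCm38.p6), on both strands. A sequence was matched by symbol for 7690 genes tested, among them 291 of the 390 distinct symbols that rose and 246 that fell. A gene counted if any of its windows held the site. The cyclic AMP response element TGACGTCA, bound by CREB and ATF proteins and by CREM, stood in 7.90% of the matched risen genes (23 of 291) and in 2.44% of the fallen ones (6 of 246). It stood in 3.29% of all matched genes tested and in 1.77% of all symbols with a promoter sequence, tested or not. Among genes that rose at least 4-fold it stood in 6 of 41. The AP-1 site TGACTCA was found in 3.44% of risen, 3.66% of fallen and 3.56% of all matched genes, and the EGR site GCGTGGGCG in 2.06%, 0.407% and 1.3004%. The serum response element (CArG box) was found in 1.37%, 0.407% and 1.24%. Among the 41 matched genes that rose at least 4-fold, the AP-1 site stood in 3 (7.32%) and the EGR site in 3 (7.32%). The CArG box stood in 1 of these 41. The NF-kB site in the form it has in the immunoglobulin kappa enhancer was in 0 of the 291 risen and 0 of the 246 fallen genes and in 13 of all 7690 matched genes, so this exact form is rare in such windows. These searches describe letters in a window and no binding was measured.

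The windows of 4 strongly risen genes are shown because they carry the cyclic AMP response element close to the start (Maff, Errfi1 and Plk2) or a pair of CArG boxes (Dusp5). Only these sites are in capitals. The Maff window also holds the EGR site GCGTGGGCG, which is left in lower case. All 4 lie on the forward strand and run 5′ to 3′ up to the base before the start. The Maff window is chr15:79347270-79347519, with its site 29 to 22 bases upstream.
Maff: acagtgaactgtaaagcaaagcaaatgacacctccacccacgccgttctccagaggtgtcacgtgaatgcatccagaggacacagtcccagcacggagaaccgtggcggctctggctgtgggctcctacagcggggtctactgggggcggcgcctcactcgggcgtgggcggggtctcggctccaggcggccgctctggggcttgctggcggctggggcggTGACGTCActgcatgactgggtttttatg
The Errfi1 window is chr4:150854820-150855069, with the site 51 to 44 bases upstream.
Errfi1: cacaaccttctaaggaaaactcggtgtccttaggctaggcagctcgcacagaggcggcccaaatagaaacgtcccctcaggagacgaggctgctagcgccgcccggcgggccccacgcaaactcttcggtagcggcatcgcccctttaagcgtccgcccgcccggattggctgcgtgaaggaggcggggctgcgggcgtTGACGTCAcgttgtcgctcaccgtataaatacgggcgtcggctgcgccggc
The Plk2 window is chr13:110394794-110395043, with the site 62 to 55 bases upstream.
Plk2: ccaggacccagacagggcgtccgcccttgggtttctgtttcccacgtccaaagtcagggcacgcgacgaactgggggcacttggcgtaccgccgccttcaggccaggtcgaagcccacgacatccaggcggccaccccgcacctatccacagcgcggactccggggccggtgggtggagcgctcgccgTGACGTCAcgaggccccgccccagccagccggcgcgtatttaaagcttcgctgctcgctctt
The Dusp5 window is chr19:53528895-53529144, with adjoining CArG boxes 82 to 73 and 72 to 63 bases upstream.
Dusp5: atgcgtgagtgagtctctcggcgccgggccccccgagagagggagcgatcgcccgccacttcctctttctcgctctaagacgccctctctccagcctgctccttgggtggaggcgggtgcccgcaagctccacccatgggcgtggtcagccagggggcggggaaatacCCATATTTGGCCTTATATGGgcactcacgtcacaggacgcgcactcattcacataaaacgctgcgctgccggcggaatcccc

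Of 36 immediate early genes tested, 14 rose and 0 fell, and the median of the list was 1.55 on the log2 scale. Over all genes tested 3.21% rose and 2.82% fell, the shares to set beside the counts of every list below. The lists and their members were chosen with earlier results of these data known. A larger share in a list is therefore a description and no test. Fosl2, a Fos-family subunit of AP-1 (chromosome 5, 32135801 to 32157842, GRCm38, as for all positions here), was at 8.78 and 5.57 RPKM at 0 min and 163 and 128 RPKM at 30 min, the largest rise of any protein-coding gene at 4.33 (SE and adjusted p from limma here and below: SE 0.37, adjusted p = 0.00559). Maff, a small Maf protein that pairs with other basic leucine zipper factors (chromosome 15, 79346621 to 79359076), went from 5.27 and 1.12 to 71.3 and 51.4 RPKM, a change of 4.23 (SE 0.58, adjusted p = 0.0163). Both 30 min libraries lay far above both 0 min libraries in each case, although the 2 resting values of Maff were far apart. Nr4a3, an orphan nuclear receptor induced by antigen receptor signals (chromosome 4, 48045153 to 48086447), went from 2.41 and 2.88 to 50.9 and 33.9 RPKM (3.696, SE 0.38, adjusted p = 0.00731).

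The other risen members of this list changed by 1.46 to 2.49. Sertad1, a transcriptional coregulator, went from 45.3 and 38.2 to 209 and 221 RPKM (SE 0.15, adjusted p = 0.00214), and the zinc finger protein Klf10 from 4.53 and 4.803 to 19.3 and 18.3 RPKM (SE 0.12, adjusted p = 0.00214). In these the replicates of both groups lay close together. The stress-inducible Gadd45b went from 23.6 and 16.7 to 89.5 and 90.3 RPKM and the repressor of the aryl hydrocarbon receptor Tiparp from 8.27 and 5.59 to 27.6 and 29.8 RPKM. Egr2, a zinc finger factor linked to T cell tolerance, went from 10.7 and 5.23 to 23.1 and 22.6 RPKM (1.62, SE 0.28, adjusted p = 0.0317). Csrnp1, Arc, Mafk, Gadd45a, Klf4 and Plk3 also rose. Without 0 min replicate 1 the list held 14 risen genes, and without 0 min replicate 2, 30 min replicate 1 or 30 min replicate 2 it held 3, 2 and 2.

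**Figure D2:**
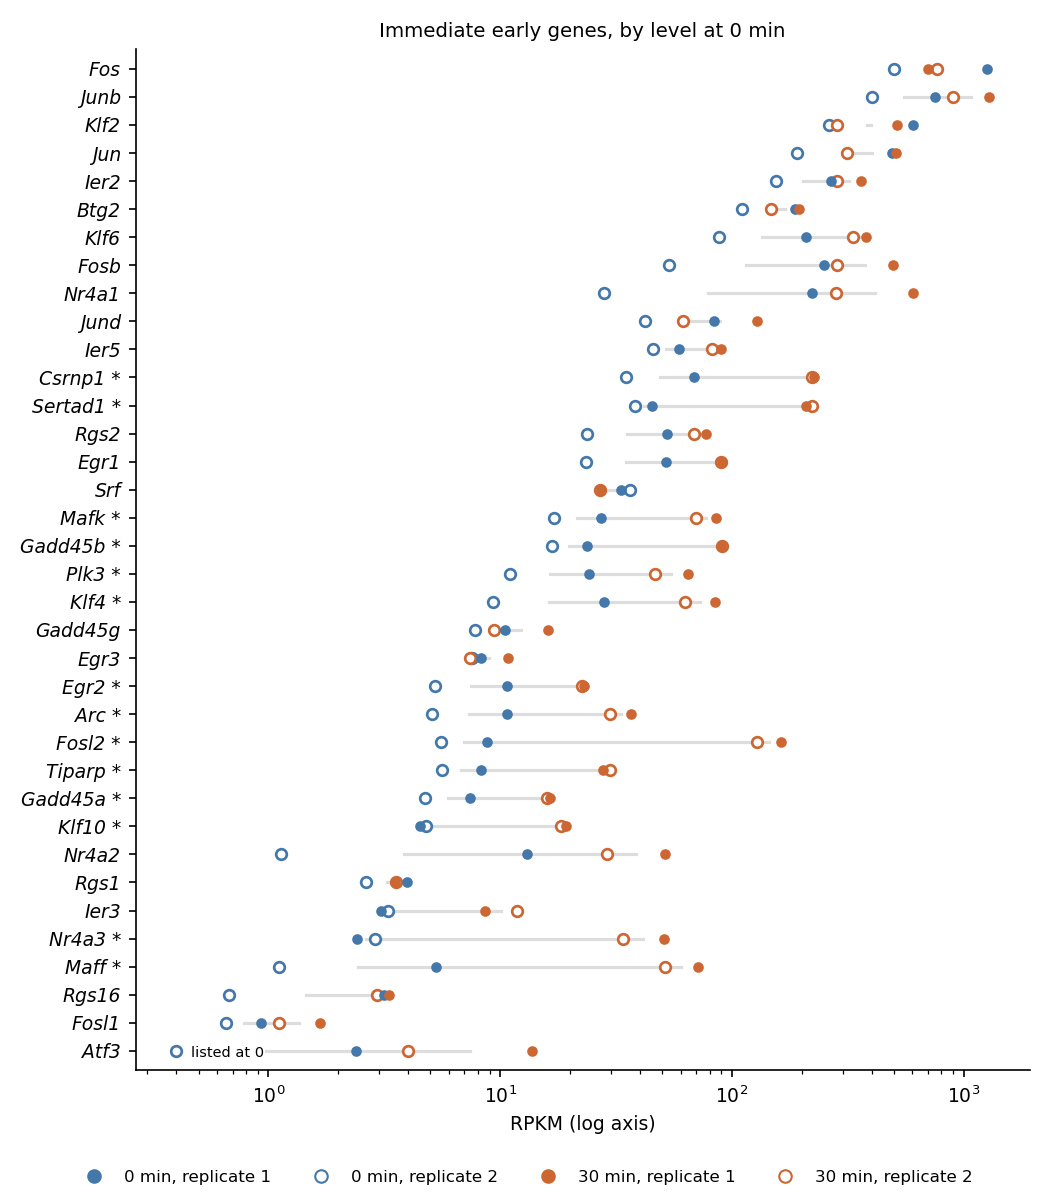
RPKM (log axis) of the 36 immediate early genes in each WT library at 0 min (blue) and 30 min (orange), replicate 1 filled and replicate 2 open, ordered by level at 0 min, with a bar joining the geometric means and an asterisk at the 14 genes that rose. At the top, the 0 and 30 min points of Fos, Klf2 and Jun overlap and the 2 resting libraries stand apart; Atf3 is listed at 0 in one library and drawn at the left edge.

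The most familiar members of the family were not among the risen genes, and they were abundant in cells labelled 0 min. Fos, the AP-1 subunit that gives the family its name (chromosome 12, 85473890 to 85477273), was at 1259 and 498 RPKM at 0 min and 699.8 and 764 RPKM at 30 min, with overlapping groups and a change of 0.03 (SE 0.49, adjusted p = 0.904). Jun, its partner, was at 492 and 190.2 RPKM at 0 min and 512 and 313 RPKM at 30 min (adjusted p = 0.605). Klf2, a quiescence and homing factor of naive T cells, was at 605 and 262 RPKM at 0 min and 517 and 285 RPKM at 30 min (adjusted p = 0.95). The groups overlap in all 3, and for Fos and Klf2 both stimulated values lie between the resting ones.

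Others were higher in both stimulated libraries but did not pass the test, and their resting libraries were far apart. Nr4a1, a nuclear receptor widely used as a reporter of T cell receptor signal strength (chromosome 15, 101254269 to 101274795), was at 221 and 27.97 RPKM at 0 min and 605 and 281 RPKM at 30 min, a difference of 2.52 (SE 0.89, adjusted p = 0.143). Junb was at 753 and 403 RPKM at 0 min and 1286 and 897 RPKM at 30 min (SE 0.48, adjusted p = 0.24), and Fosb at 249 and 53.3 RPKM at 0 min and 493 and 285 RPKM at 30 min (SE 0.71, adjusted p = 0.179). The groups do not overlap in these genes, and in each of them 0 min replicate 1 was the higher resting library. Egr1, the founding EGR factor (chromosome 18, 34859823 to 34864984), was at 52.00 and 23.4 RPKM at rest and 90.1 and 89.9 RPKM at 30 min (1.49, SE 0.32, adjusted p = 0.0567), just short of the threshold. Its relative Egr3 was at 8.29 and 7.55 RPKM at 0 min and 10.8 and 7.402 RPKM at 30 min, with overlapping groups. Nr4a2 went from 13.03 and 1.14 to 51.2 and 29.00 RPKM (3.002, adjusted p = 0.0891).

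No call in this list fell on a gene with a resting mean of 100 RPKM or more. Of the 18 immediate early genes with a mean under 20 RPKM at 0 min 10 rose, of the 9 between 20 and 100 RPKM 4 rose, and of the 9 at 100 RPKM or more none did. Of all genes 2.77% rose at 100 RPKM or more, 3.47% between 20 and 100 RPKM and 2.04% to 4.27% in the classes below. The resting mean is also the baseline of each change, so level and call are not independent. The resting libraries were unequal in these genes: 32 of 36 (88.9%) were higher in 0 min replicate 1 than in replicate 2, 14 of them at least 2-fold, with a median log2 difference of 0.91. Over all genes tested 37.3% were higher in replicate 1, with a median of -0.08. At 30 min 30 of the 36 (83.3%) were again higher in replicate 1, with a median of 0.31 and 3 of them at least 2-fold, beside 41.5% of all genes. Heat shock genes moved with them: 14 of 15 were higher in replicate 1 at 0 min (median 0.74), and 14 of 15 at 30 min (median 0.58). Hspa1b, an inducible heat shock chaperone with a near-identical copy, was at 388 and 72.01 RPKM at 0 min and 209.7 and 42.5 RPKM at 30 min. The 7 mitochondrial mRNAs went the other way, with 0 of 7 higher in replicate 1 at either time. The part that the state seen in the heat shock genes had in the resting levels of immediate early genes was not tested. A fit with the replicate number as a block called 20 of the 36 immediate early genes higher.

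Among genes that damp the MAP kinase pathway 7 of 17 tested rose and 0 fell, with a median of 0.74. With 1 WT library left out, 2 to 4 were called higher. Dusp5, a nuclear phosphatase of ERK (chromosome 19, 53529109 to 53542431) whose window with paired CArG boxes is printed above, went from 11.5 and 6.92 to 113 and 106 RPKM, a rise of 3.62 (SE 0.37, adjusted p = 0.00733). Dusp4, another nuclear phosphatase, went from 3.399 and 1.11 to 33.4 and 20.7 RPKM (3.31, SE 0.41, adjusted p = 0.014). Dusp10, which acts mainly on JNK and p38 (chromosome 1, 184013302 to 184075636), went from 27.1 and 28.2 to 188 and 177 RPKM (2.83, SE 0.16, adjusted p = 0.00214). The Dusp10 replicates differed by only a few percent at each time, while those of Dusp4 at rest differed by more; reads of the opposite-strand gene 1700056E22Rik, which overlaps Dusp10, cannot be told apart from it.

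Errfi1, an adaptor that inhibits the epidermal growth factor receptor (chromosome 4, 150853919 to 150868892), went from 3.25 and 2.14 to 34.5 and 29.7 RPKM, a rise of 3.33 (SE 0.21, adjusted p = 0.00214). The cytoplasmic ERK phosphatase Dusp6 was already present and went from 29.8 and 22.9 to 52.1 and 48.8 RPKM (1.07, SE 0.16, adjusted p = 0.0258). Spry4, a Sprouty inhibitor of Ras signalling, went from 0.244 and 0.0981 to 2.39 and 1.91 RPKM, and the JNK phosphatase Dusp8 from 0.0382 and 0 to 4.21 and 1.98 RPKM. These last 2 genes were near the detection limit at rest and low at 30 min.

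Of 24 NF-kB pathway genes tested 7 rose and 0 fell, with a median of 0.50, and 0 or 1 were called higher with a WT library left out. Inhibitors and a subunit rose together. Nfkbia, which encodes the inhibitor that holds NF-kB in the cytoplasm (chromosome 12, 55489410 to 55492647), went from 173 and 165 to 483 and 507 RPKM (1.69, SE 0.14, adjusted p = 0.00559). Tnfaip3, the ubiquitin-editing inhibitor A20, went from 138 and 84.4 to 469.6 and 452 RPKM (2.23, SE 0.42, adjusted p = 0.0358), and the nuclear inhibitor Nfkbid from 43.1 and 27.5 to 121 and 83.3 RPKM (1.66, SE 0.31, adjusted p = 0.0385). Rel, the c-Rel subunit, went from 10.7 and 8.96 to 43.5 and 31.1 RPKM (1.95, SE 0.32, adjusted p = 0.026). Groups were apart in all 4, with the widest resting spread in Tnfaip3. Bcl10 and Malt1, partners in the complex that links the T cell receptor to NF-kB, went from 27.1 and 31.8 to 70.9 and 76.6 RPKM and from 27.8 and 27.4 to 41.6 and 43.6 RPKM. The inhibitor of apoptosis Birc3 was the other gene of the list that rose.

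Among 26 transcription factors of T cell activation 6 rose and 0 fell (median 0.30), and 0 to 3 were called higher with a WT library left out. Crem, a cyclic AMP responsive factor with repressor isoforms, went from 1.14 and 0.630 to 12.2 and 10.5 RPKM (2.87, SE 0.28, adjusted p = 0.00699). Nfil3, a basic leucine zipper repressor, went from 2.62 and 1.83 to 24.5 and 21.96 RPKM (3.07, SE 0.30, adjusted p = 0.00699). Irf4, whose level follows T cell receptor signal strength, went from 5.06 and 1.41 to 19.1 and 15.6 RPKM (2.41, SE 0.40, adjusted p = 0.0264). All 3 were low at rest and clearly expressed at 30 min, with the 0 min replicates of Irf4 further apart than those at 30 min. Xbp1, Arid5a and Bhlhe40 rose by 1.34, 1.21 and 1.57. Myc, which drives growth of activated T cells, was at 100.4 and 66.5 RPKM at rest and 70.6 and 68.6 RPKM at 30 min, with overlapping groups (-0.08, adjusted p = 0.523). Ikzf1, the gene of Ikaros, was at 134 and 148 RPKM at 0 min and 156 and 171 RPKM at 30 min (adjusted p = 0.363).

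Of 15 cytokine and chemokine genes tested 1 rose and 1 fell, with a median of 0.29, beside 3.21% risen and 2.82% fallen of all genes. Tnf, an inflammatory cytokine made early by activated T cells (chromosome 17, 35199381 to 35202007), went from 6.48 and 6.25 to 58.4 and 60.4 RPKM, a rise of 3.18 (SE 0.21, adjusted p = 0.00214). Its replicates nearly coincided at both times. Il16, a chemoattractant made by resting T cells, fell by 0.78 (SE 0.21, adjusted p = 0.0478); Stard5 overlaps it on the opposite strand. Ifng, the effector cytokine of CD8 T cells, was at 2.31 and 1.12 RPKM at 0 min and 3.64 and 0.996 RPKM at 30 min, with overlapping groups (adjusted p = 0.815). Il2 was not analysed here.

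At the cell surface, 4 of 19 activation receptors rose and 0 fell (median 0.06), and 0 to 3 were called higher with a WT library left out. Cd28, the receptor engaged by one of the antibodies (chromosome 1, 60716800 to 60773359), went from 15.3 and 12.3 to 99.7 and 91.9 RPKM (2.86, SE 0.23, adjusted p = 0.00467). Icos, its inducible relative, went from 8.04 and 10.9 to 28.9 and 28.7 RPKM (1.67, SE 0.15, adjusted p = 0.0064). Both stimulated libraries lay well above both resting ones for each gene. The transferrin receptor Tfrc, which supplies iron to growing cells, went from 9.43 and 9.204 to 26.7 and 24.2 RPKM (1.504, SE 0.12, adjusted p = 0.00559), and the adhesion receptor Slamf1 from 1.97 and 2.48 to 12.95 and 6.57 RPKM (1.82, SE 0.27, adjusted p = 0.0214). Cd69, the classical early activation marker, was high at rest: 196 and 126 RPKM at 0 min and 392 and 559 RPKM at 30 min, a difference of 1.71 that just missed the threshold (SE 0.39, adjusted p = 0.061).

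Of 27 genes of cytokine receptors and their inhibitors 2 rose and 1 fell, beside 3.21% risen and 2.82% fallen of all genes. Ifngr1, a chain of the interferon gamma receptor, rose by 1.22 (SE 0.22, adjusted p = 0.0385), and the kinase Pim1, a target of cytokine signals, by 1.57 (SE 0.18, adjusted p = 0.0138). Il27ra, an interleukin 27 receptor chain that Palm3 on the opposite strand overlaps only at the edge, changed by -0.63 (SE 0.13, adjusted p = 0.0221). The naive and homing genes held 1 risen gene of 23 and none that fell (median 0.38), a count near the 3.21% of all genes that rose. The risen gene was Ccr7, the receptor that guides naive T cells into lymph nodes (chromosome 11, 99144196 to 99155077), which went from 270.3 and 225 to 829.9 and 808 RPKM (1.88, SE 0.17, adjusted p = 0.00612). In 13 of the 23 both stimulated libraries were above both resting ones and in 5 below, beside 19% and 41.4% of all genes. Limma-voom on reads recovered from the RPKM values called 4 higher and 0 lower, and scaling by the median ratio gave 5 rises and 0 falls.

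Regulators of mRNA decay and proliferation rose in 7 of 23 cases, with 0 falls and a median of 0.35, and 0 to 4 were called higher with a WT library left out. Zc3h12a, the ribonuclease Regnase-1 that degrades mRNAs of activation genes, went from 19.8 and 16.2 to 95.6 and 93.8 RPKM (2.49, SE 0.18, adjusted p = 0.00401). Rc3h1, the mRNA-binding repressor Roquin, went from 11.98 and 11.4 to 22.2 and 23.02 RPKM (1.05, SE 0.12, adjusted p = 0.014). Tob1 and Tob2, antiproliferative partners of the deadenylation machinery, both rose by 1.75, from 44.97 and 27.4 to 111 and 106 RPKM and from 66.8 and 38.6 to 171 and 142 RPKM. In all 4 genes both stimulated libraries were above both resting ones. Cdkn1a, the cell cycle inhibitor p21, was nearly silent at rest at 0.377 and 0.0506 RPKM and reached 5.66 and 3.25 RPKM (2.29, SE 0.25, adjusted p = 0.0104). Btg1 and Pnrc1 also rose.

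In the list of the integrated stress and unfolded protein response 9 of 20 genes rose and 1 fell, with a median of 0.65. With a WT library left out, 0 or 1 were called higher. Hspa5, the endoplasmic reticulum chaperone BiP, went from 202 and 164 to 481 and 477 RPKM (1.54, SE 0.16, adjusted p = 0.0093). Ddit3, the factor CHOP, went from 21.4 and 13.2 to 61.5 and 49.5 RPKM (1.803, SE 0.28, adjusted p = 0.0237), and Mars overlaps it on the opposite strand. Sesn2, a stress-inducible inhibitor of mTORC1, went from 2.25 and 2.85 to 13.3 and 11.8 RPKM (2.08, SE 0.26, adjusted p = 0.0149), and the co-chaperone Dnajb9 from 20.6 and 14.2 to 61.5 and 71.4 RPKM (2.04, SE 0.27, adjusted p = 0.0163). The groups were apart in each of these genes. Atf4, the central factor of the integrated stress response, rose by 1.17 (SE 0.21, adjusted p = 0.0403), as did Herpud1, Calr, Trib3 and the kinase gene Eif2ak3 by 1.12 to 1.66. Pdia4, a disulphide isomerase, fell by 0.56 (SE 0.13, adjusted p = 0.0275). None of the 15 heat shock genes was called, while limma-voom on reads recovered from the RPKM values called 2 higher and 0 lower.

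Of 24 solute carrier and glycolysis genes 5 rose and 0 fell (median 0.22), all 5 of them transporters, and 1 to 3 were called higher with a WT library left out. Slc2a1, the glucose transporter GLUT1, went from 15.1 and 14.4 to 66.5 and 52.1 RPKM (2.07, SE 0.21, adjusted p = 0.00761). Slc38a2, a transporter of small neutral amino acids, went from 87.2 and 65.5 to 374 and 373 RPKM (2.44, SE 0.26, adjusted p = 0.00911), and Slc16a1, a lactate and pyruvate carrier, from 13.5 and 10.3 to 54.1 and 46.97 RPKM (2.15, SE 0.16, adjusted p = 0.00401). Each rose in both libraries with groups far apart. Slc7a5 and Slc3a2, the 2 chains of a large neutral amino acid exchanger, rose by 1.14 and 1.18.

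Among genes of growth and division, 2 of 28 in the ribosome biogenesis list rose and 0 fell, and 1 of 21 in the cell cycle list rose and 2 fell, beside calls for 6.03% of all genes. Gnl3 and Nop56, nucleolar proteins, rose by 0.99 and 0.94 (limma, adjusted p = 0.0237 and 0.0258). Each hosts small nucleolar RNAs in its introns and overlaps a gene on the opposite strand only at its edge. Of the cell cycle genes Pcna, the replication clamp, went from 19.98 and 20.3 to 36.8 and 45.96 RPKM (1.15, SE 0.16, adjusted p = 0.0211). Ccnd2, a D-type cyclin of the G1 phase, went down from 71.7 and 90.1 to 44.9 and 47.4 RPKM (-0.64, SE 0.14, adjusted p = 0.0264), and its kinase Cdk4 changed by -0.54 (SE 0.14, adjusted p = 0.0345).

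Several lists were at or near the median of all genes, of which 3.21% rose and 2.82% fell. None of 24 genes of proximal T cell receptor signalling was called by limma on log2 RPKM, while limma-voom on reads recovered from the RPKM values called 1 higher and 4 lower. In 11 of the 24 both stimulated libraries were lower, beside 41.4% of all genes, and the median was -0.04. Cd3e was at 224 and 252 RPKM at 0 min and 122 and 166 RPKM at 30 min (adjusted p = 0.0583). Of 22 negative regulators of this signalling, 1 rose and 1 fell (1 and 5 by limma-voom): the adaptor Sla rose by 0.74 and its relative Sla2 changed by -0.67 (adjusted p = 0.0483 and 0.0389). Calm2, 1 of several genes for the same calmodulin protein, was the only called gene of 21 in the calcium and NFAT list (1.04, adjusted p = 0.0218). Brd2, a reader of acetylated histones, was the only called gene of 27 chromatin regulators, going from 82.2 and 82.2 to 188 and 172 RPKM (1.27, SE 0.12, adjusted p = 0.00731). None of 17 apoptosis regulators, 12 reference genes or 7 mitochondrial mRNAs was called. Limma-voom called 4 apoptosis regulators higher and 2 lower, and 3 reference genes higher and 0 lower. It called 2 higher and 1 lower in the calcium and NFAT list and 4 higher and 1 lower among chromatin regulators.

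**Figure D3:**
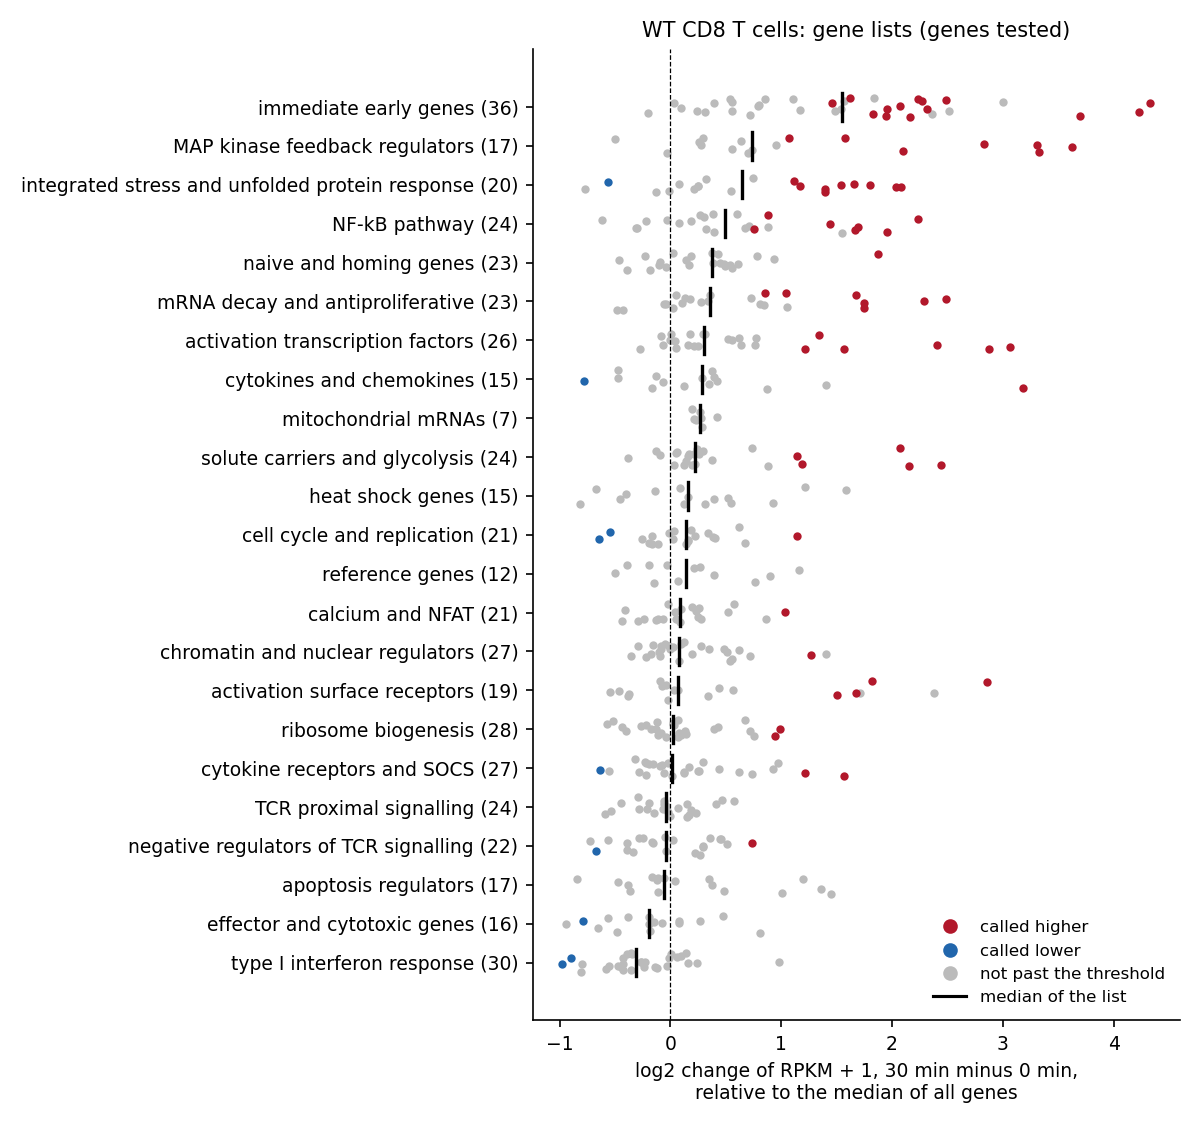
Log2 change of each tested member of the 23 gene lists (dots, red where called higher, blue where called lower), relative to the median of all genes, with the median of each list as a black bar and the number of genes tested in brackets. Immediate early genes, MAP kinase feedback regulators and stress response genes hold the highest medians at 1.55, 0.74 and 0.65, and the type I interferon list the lowest at -0.31. The lists were chosen with earlier results of these data known.

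Type I interferon response genes had the lowest median of the 23 lists at -0.31. Of 30 tested 0 rose and 2 fell (1 and 9 by limma-voom, 0 and 0 with any WT library left out), and 20 had both stimulated libraries below both resting ones, beside 41.4% of all genes. Ifit1, which binds RNA lacking the normal cap, went from 7.36 and 9.997 to 2.82 and 4.08 RPKM (-0.97, SE 0.21, adjusted p = 0.0313), and Oas3, a sensor of double-stranded RNA, from 20.6 and 20.4 to 8.53 and 10.4 RPKM (-0.897, SE 0.20, adjusted p = 0.0327). Among 16 effector and cytotoxic genes 1 fell, the chemokine receptor Cxcr3, from 4.304 and 3.18 to 1.54 and 1.39 RPKM (-0.79, SE 0.20, adjusted p = 0.0404). Of all genes tested 2.82% fell. In 11 of the 16 both stimulated libraries were below both resting ones and in 2 above, and the median was -0.19. Limma-voom called 0 of the 16 higher and 3 lower. Perforin, Prf1, was at 27.1 and 38.8 RPKM at 0 min and 17.2 and 19.3 RPKM at 30 min (adjusted p = 0.0987).

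The 12 largest falls were smaller than the largest rises, and none of these 12 genes is a member of the lists. Ftsj2, a mitochondrial rRNA methyltransferase, went from 4.32 and 7.02 to 0.657 and 1.07 RPKM (-1.67, SE 0.40, adjusted p = 0.0477), and Izumo4 from 25.4 and 19.3 to 6.25 and 5.31 RPKM (-1.63, SE 0.28, adjusted p = 0.0204). Art2b, a surface enzyme that attaches ADP-ribose to T cell proteins, went from 19.3 and 25.3 to 5.45 and 6.91 RPKM (-1.55, SE 0.27, adjusted p = 0.0208). In each the stimulated libraries lay below the resting ones by more than the replicates differed. Tnfrsf14, the receptor HVEM, which is high on resting T cells (chromosome 4, 154921933 to 154928563), went from 43.1 and 40.9 to 14.9 and 13.2 RPKM (-1.37, SE 0.15, adjusted p = 0.00612). Slfn1, a Schlafen gene of T cell quiescence, went from 82.8 and 102 to 31.3 and 36.1 RPKM (-1.28, SE 0.20, adjusted p = 0.0163). The others of the 12 were Bcdin3d, Fbxo46, Tor4a, Commd5, Rps27, Kbtbd11 and Ccdc71, at -1.54 to -1.295. Ftsj2, Fbxo46, Kbtbd11 and Ccdc71 overlap measured genes on the opposite strand, so these values are uncertain. Rps27 has annotated copies such as Rps27rt, and how reads matching more than 1 copy were counted is not given in the sources used here.

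**Figure D4:**
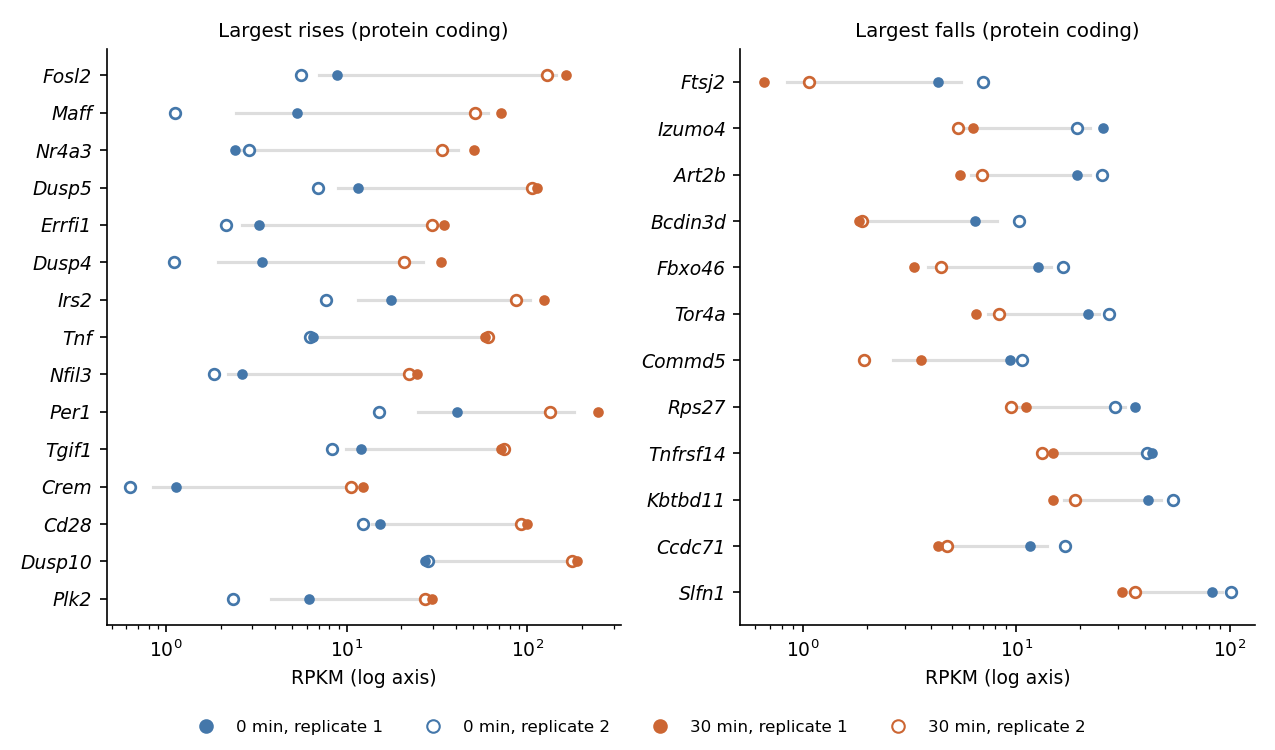
RPKM (log axis) of the 15 protein-coding genes with the largest rise and the 12 with the largest fall in WT CD8 T cells, 1 point per library, 0 min in blue, 30 min in orange, replicate 1 filled and replicate 2 open, with a bar joining the geometric means. The blue and orange pairs do not overlap in any of them, which the rule that picked them required. The resting replicates are widest apart in Maff, Dusp4, Irs2, Per1 and Plk2.

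Among the remaining large rises, Irs2, an insulin receptor substrate, went from 17.6 and 7.63 to 124 and 86.7 RPKM (3.196, SE 0.47, adjusted p = 0.0188). Per1, a circadian repressor that is also a cyclic AMP target, went from 40.6 and 15.1 to 245 and 133 RPKM (2.96, SE 0.60, adjusted p = 0.0419). Tgif1, a homeobox repressor, went from 11.9 and 8.24 to 71.4 and 73.9 RPKM (2.900, SE 0.29, adjusted p = 0.00731). The replicates of Tgif1 agreed closely at 30 min, while those of Per1 were further apart at both times. Plk2, a kinase of the polo family, went from 6.15 and 2.33 to 29.6 and 26.98 RPKM (2.73, SE 0.49, adjusted p = 0.0305).

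The smallest p-value of the whole comparison belonged to a feature that is not annotated as coding. RP23-16N14.5, a processed pseudogene of 806 bases at chromosome 1, 55066264 to 55067069, went from 1.73 and 1.54 to 35.95 and 34.7 RPKM, a change of 3.94 (SE 0.14, adjusted p = 0.000362). It lies inside Coq10b on the same strand. Coq10b, a coenzyme Q binding protein of mitochondria (chromosome 1, 55052770 to 55072702), rose from 2.403 and 2.06 to 11.9 and 8.796 RPKM (1.95, SE 0.24, adjusted p = 0.014). Reads of the pseudogene and of its host cannot be told apart by strand, and per kilobase the pseudogene was about as high as Coq10b at rest but higher at 30 min. The adjacent pair Hspd1 and Hspe1 was not called (adjusted p = 0.914 and 0.286). The other 2 non-coding features named by rule, Mir7-1 inside Hnrnpk and Gm26359 opposite Jmjd1c, are short and rest on few reads.

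Risen and fallen genes were also compared by gene structure, as a description. Among protein-coding genes the median span was 17463 bases for risen, 11514 for fallen and 22770 for all tested, and the median of the largest exon number of a transcript was 6, 8 and 9. Of genes spanning 10 to 20 kb 4.98% rose, and of those of 100 kb or more 1.89%. Of genes spanning 5 to 10 kb 6.65% fell, and of those of 100 kb or more 0.199%. None of the 43 coding genes that rose at least 4-fold spans over 100 kb; the longest spans 71701 bases. The 19 long genes that rose include the phosphodiesterases Pde4d (1503514 bases) and Pde4b (519717 bases). Genes are not independent samples, and these shares were not tested.

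**Figure D5:**
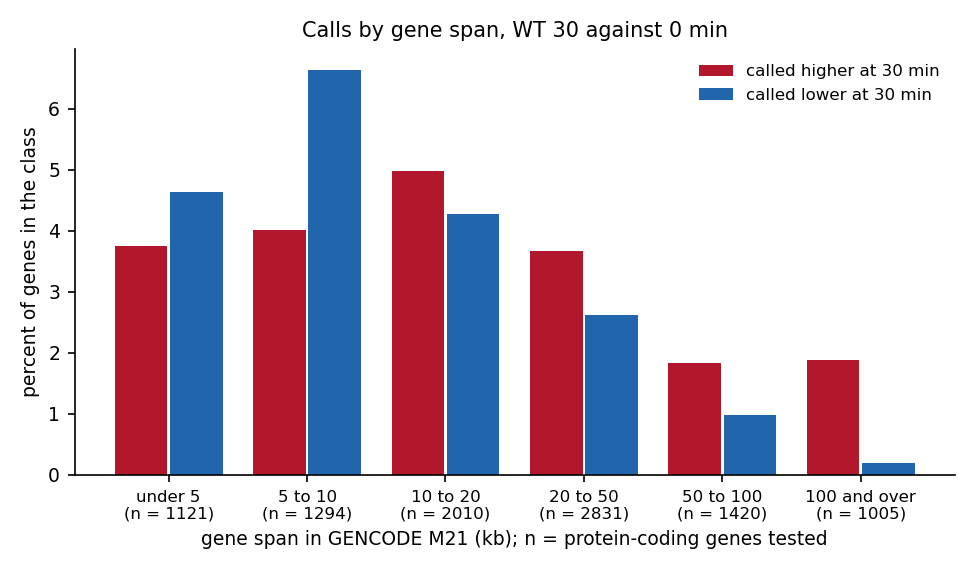
Percent of the protein-coding genes tested that were called higher (red) or lower (blue) at 30 min, in 6 classes of gene span in kb, with the number of genes in each class. Rises peak at 4.98% in the 10 to 20 kb class and falls at 6.65% in the 5 to 10 kb class, and both are lowest above 50 kb.

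Most risen genes were already expressed at 0 min. Of the 392 risen genes 46 (11.7%) were under 1 RPKM in both resting libraries, against 7.73% of all genes tested. Every gene of the table reaches a mean of 1 RPKM in some group, so such genes entered only through another group, which may be 30 min. The larger share is therefore no result about the risen genes. The number of risen genes at 100 RPKM or more went from 10 at 0 min to 42 at 30 min. In the single WT library at 120 min, 167 of the risen genes lay above their 30 min range, 176 below it and 49 within it, while 15 were within their 0 min range. Fosl2, at 222 RPKM, and Nr4a3, at 129.9 RPKM, were among those still higher, and Dusp4, at 5.42 RPKM, Dusp5, at 37.1 RPKM, and Cd28, at 33.6 RPKM, were among those below that range. Of the 344 fallen genes 225 were lower still and 332 were below their 0 min range. With 1 library there is no test at that time. The ranges come from the same values that picked these genes, and the counts were not made over all genes. They therefore only describe the called genes.

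In Ikaros-Zn4-/- cells the same 30 min comparison, which uses other libraries, gave 205 risen (1.68%) and 129 fallen genes (1.06%). A direct test of the difference between the responses called 0 of 12203 genes (limma, smallest adjusted p = 0.876), with 656 at an unadjusted p under 0.05. WT calls that were not made in the mutant are therefore not shown to be particular to WT cells. Dusp10 had a response of 2.83 in WT and 1.28 in mutant cells, a difference on the deposited scale of -1.51 (SE 0.23, adjusted p = 0.876). Junb was at 107 and 268 RPKM at 0 min and 1559 and 1272 RPKM at 30 min in mutant cells, and its response differed from that of WT by 2.09 (SE 0.67, adjusted p = 0.876). Fos was at 270.2 and 175 RPKM at 0 min and 591 and 1134 RPKM at 30 min in those libraries, with a difference of 2.02 (SE 0.69, adjusted p = 0.876). None of these 3 differences passed the test.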

How the data were processed

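RNA of sorted mouse CD8+ T cells was sequenced in 10 libraries of 6 groups, and the 4 WT libraries at 0 and 30 min are the subject here. Per the labels' protocols, single-end TruSeq v2 libraries were prepared from total RNA. That kit does not mark strand, so the reads of opposite-strand neighbours that overlap are mixed. Besides the pairs given above, this holds for Brd2 with H2-DMa, Sla2 with Rab5if, Cdk4 with Tspan31 and Slc2a1 with Gm12867 and Gm12868. The authors deposited 1 table of RPKM values, with a row per gene and a column per library. Per the submitters' processing notes, HTSeq 0.6.1, TopHat and TopHat2 2.0.12 were used with builds GRCm38 and mm10. What each tool did and which annotation was used is not given in the sources used here. Every gene of the table reaches a mean of 1 RPKM in at least 1 group, so genes low throughout were not analysed here. Gene positions and lengths are those of GENCODE M21, found for 12567 of 12637 genes, and 7 symbols stand on 2 rows with identical values. Depth was recovered from the spacing of low RPKM values (65.8% to 71.2% of values under 200 reads were whole reads to within 0.01, where chance gives 2%), and the recovered reads sum to 94.0% to 101% of it.

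The test was limma 3.58.1 in R 4.3.3 on log2(RPKM + 1), a pseudocount of 1, for genes whose mean over the 10 libraries reached 0.5 RPKM. A model with 1 mean per group was fitted to all 10 libraries with an intensity trend, two-sided, with Benjamini-Hochberg adjustment across the 12203 genes and a threshold of 0.05. The pipeline was tested on simulated data first. Genes named by rule were the 15 largest rises and 12 largest falls among called protein-coding genes, the 3 largest called changes of non-coding genes, up to 4 members of each of 23 lists, and 13 fixed genes, of which Il2 was not analysed here. The largest rises and falls were also required to have groups that did not overlap. All other genes named are further list members, markers, neighbours, long genes or stable calls, and were named after their values were seen. The members and lists were chosen with earlier results of these data known. Figures and tables were made with Python 3.11.15, pandas 2.3.3, numpy 2.4.6 and matplotlib 3.10.9. Alternatives were another pseudocount, other filters, scaling by the median ratio, quantile normalization, the spread of the compared groups only, the replicate number as a block, limma-voom on recovered reads and each library left out in turn.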

Additional observations from a re-analysis of the deposited data

How the results depend on the processing

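The 736 calls were 392 rises and 344 falls. Of the 736 genes 688 had a value in all 17 alternatives; 42 were left out by the minimum of 2 RPKM, 7 by limma-voom and 2 by counting identical rows once. Each kept its direction where it had a value, but most alternatives could not reverse genes whose groups do not overlap. Of the 736 genes, 182 kept their call in every alternative that used all 10 libraries. The count was within 1.5 times of 736 with a pseudocount of 0.1 (684), without the filter (631), with a minimum of 2 RPKM (942), with quantile normalization (853) and with identical rows counted once (734), an alternative chosen after seeing the data. Scaling by the median ratio gave 882 calls, of which 628 were rises. Limma-voom on recovered reads gave 1878 calls (798 rises and 1080 falls), 702 of them shared with the 736. Taking the spread from the compared groups only gave 233 calls (173 and 60). With 1 library left out the calls were 13 to 713, the rises 13 to 387 and the falls 0 to 328, and the lowest counts came with a WT library left out, each of which leaves 1 library in a group. Leaving out Zn4 0 min replicate 1 or 2 gave 229 and 212 falls, through the shared spread alone. The cause of the other shifts was not tested.

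The labels number the libraries 1 and 2 in each group but do not say that a number marks a mouse or a day. The differences between replicates 1 and 2 correlated across genes with r = 0.23 between WT 0 and 30 min and with 0.04 to 0.20 between the other pairs of groups. All 6 values were above 0, with 1 of them near 0. In WT 14 of 15 heat shock genes were higher in replicate 1 at both times, so samples of a number may share more than the number. Since no label says what the numbers mark, the main test did not use them, and a shared source was not tested. With the replicate number as a block there were 1891 calls, 694 rises and 1197 falls, and all 736 calls were among them. In that fit the falls went from 2 to 8 of 30 genes in the type I interferon list, from 0 to 4 of 24 in proximal T cell receptor signalling and from 1 to 6 of 22 in its negative regulators, and the rises from 14 to 20 of 36 immediate early genes.

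The test of the difference between genotypes called 0 genes in every alternative but 1: without WT 0 min replicate 2 it called 1, the microRNA gene Mir6946, and over the leave-one-out fits the count was 0 to 1. Of 177 genes named, 0 changed direction where a call was made in either fit. For genes whose groups do not overlap, most alternatives left little room for a reversal. Depth limits low genes: 1 read on a 1 kb transcript was worth 0.0862 to 0.172 RPKM in the WT libraries.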
